A study of Danio rerio with 4 samples.

Results

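Positions occupied by Flag-tagged Pou5f1 in zebrafish embryos of the 512-cell stage were compared with positions occupied by Sox2 at late blastula. Members were the 512-cell Pou5f1-Flag intervals that overlapped a Sox2 interval by at least 1 bp, after intervals overlapping the Input list and those on the mitochondrial chromosome were dropped from both lists. There were 554 such positions among 7573 in the 512-cell list (7.32%, exact 95% interval 6.74 to 7.93), out of 22907 intervals listed in the whole series. They met 550 of the 5922 Sox2 positions (9.29%, 8.56 to 10.1), since 4 Sox2 intervals each spanned 2 positions of the 512-cell list. With a false discovery rate of at most 1% in both lists the order of these shares turned, at 19.2% of 1289 positions at 512 cells and 5.14% of 4788 for Sox2.

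The 512-cell sample came from maternal-zygotic spg (MZspg) embryos, mutants without working Pou5f1 of their own, that had been injected with Pou5f1-Flag mRNA, and chromatin was precipitated with anti-FLAG M2. Sox2 was precipitated from uninjected wildtype embryos at late blastula with anti-Sox2. Wildtype late blastula Input served as the filter, and Pou5f1-Flag from injected MZspg embryos at late blastula was used as a further list that played no part in choosing the members. All were whole embryos fixed in 1% formaldehyde, with 2000000 nuclei used for the 512-cell sample and 20000000 for each late blastula sample. Per the labels, the injected MZspg embryos of late blastula received at the 1-cell stage an amount of mRNA that barely restored the mutant. No amount is given for the 512-cell embryos. Each group held 1 sample, so differences have no replicate check and no p-value is given. Factor, antibody, stage, genotype, mRNA injection and number of nuclei differ together between the 2 lists and cannot be told apart. No Sox2 list of the 512-cell stage and no Input of injected or 512-cell embryos was analysed here.

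Pou5f1 (now named pou5f3 in zebrafish) is a Pou-domain relative of mammalian Oct4, and Sox2 belongs to the SoxB1 family of HMG-box factors. Oct4 and Sox2 are known from mammalian stem cells to bind side by side at composite DNA sites. In zebrafish, maternally supplied Pou5f1, SoxB1 factors and Nanog take part in switching on the zygotic genome, and the 512-cell stage precedes the main wave of that transcription. Sequences of the positions were not analysed here.

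Reads are the authors' counts inside each interval and were used for ranks within a list only. Coordinates are Zv9 counted from 1 and are those of the 512-cell interval. The place of a position within a gene (exon, intron or UTR) was not analysed here. The flanking genes are the ones the lists name, that at lower coordinates first. Where several late blastula Pou5f1-Flag intervals overlapped a position, the reads given are those of the largest.

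Shared positions were ordered by the worse of their 2 ranks, each as a percentile of its list. Those called highest in both lists come first in that order. The shared position with most Sox2 reads (924, rank 2, chromosome 25) was not among the first 20, having 73 reads and rank 1424 at 512 cells. First in the order was a position on chromosome 3 (41903581 to 41904644). It had 386 reads and rank 9 at 512 cells and 905 reads and rank 3 for Sox2. The 512-cell list named it by grifin and lfng, the latter a glycosyltransferase that modifies Notch, whereas the Sox2 list named suz12a and rab11fip4a. The second was the interval beside vox, a ventral homeobox repressor gene (chromosome 13, 54056176 to 54056929, 316 and 617 reads). Its other neighbour was mir202 in the 512-cell list and vent, a related ventral repressor gene, in the Sox2 list. The third lay at mych, a Myc family gene (chromosome 6, 50379207 to 50379883), with 279 and 599 reads. Pou5f1-Flag was listed at all of these at late blastula too, with 88, 169 and 368 reads.

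The 20 positions highest in both lists are grouped here by kind of gene, as a description. The share of such genes among all shared positions was not counted. Several of the 20 were named for genes of the nervous system. The position between zgc:154142 and mdh1aa, which the Sox2 list placed beside the head homeobox gene otx2a, had 242 reads at 512 cells and 756 for Sox2 (chromosome 1, 51431596 to 51432075). That between bhlhe23, a neural helix-loop-helix gene, and mir124-5, a copy of the neuronal microRNA miR-124, had 230 and 674 reads (chromosome 23, 17940553 to 17941206). Hes-related repressor genes followed. The position between her11 and her5 had 198 and 487 reads (chromosome 14, 31412241 to 31412672), and that beside her3 had 191 and 510 reads (chromosome 8, 48794636 to 48795169). At the LIM homeobox gene lhx5, named by the Sox2 list, the reads were 200 and 371.

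Positions named for signalling genes formed another part of the 20. Beside sp5l, a zinc finger gene induced by Wnt, there were 343 reads at 512 cells (rank 11) and 442 for Sox2 (rank 65; chromosome 23, 28270773 to 28271609). Beside etv4, which encodes an Ets factor downstream of Fgf, there were 334 reads (rank 12) and 406 (rank 86; chromosome 12, 29123904 to 29124722). These positions were much nearer the top of the 512-cell list than of the Sox2 list. Another shared sp5l position, outside the 20, had the opposite order (chromosome 23, 28266757 to 28267072). It had 122 reads at 512 cells (rank 437) and 566 for Sox2 (rank 29). At ctnnb1, which encodes beta-catenin, the reads were 223 and 417. Between klf6a, a Krüppel-like factor gene, and fzd8a, a Wnt receptor gene, they were 209 and 436. For id1, a target of Bmp, they were 186 and 438, and for the ligand gene fgf8a 177 and 449. The fgf8a position and the position at slc48a1a and itga5, a fibronectin receptor gene (206 and 524 reads), were those of the 20 that had no late blastula Pou5f1-Flag interval, and the other 18 had one.

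Positions named for mesendoderm genes completed the leading group. The names were those of the notochord gene tbxta (198 and 381 reads) and the homeobox gene hhex (168 and 482). The third was foxh1, a Smad partner in Nodal signalling (167 and 402). The names tbxta, foxh1, ctnnb1, etv4, fzd8a, itga5, lhx5, otx2a and midn at these positions came from the Sox2 list alone. The 512-cell list named oplah and fkbp10b at the foxh1 position, ndufa3 and cmtm8b at ctnnb1 and meox1 and ogfod3 at etv4. It named slc48a1a and pou6f1 at itga5 and klf6a and cpb1 at fzd8a. For the tbxta position (chromosome 19, 31013877 to 31014598) the 512-cell list named zdhhc18b and marcksl1b. At a shared position lower on that chromosome (30638443 to 30638846) it named tbxta and zdhhc18b. By its names, zdhhc18b thus lay between tbxta and the leading position, and tbxta was not the adjacent gene. The remaining members were NM_200017 with atp5f1d or midn (240 and 739 reads) and tshba with slc25a55a (180 and 373).

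**Figure D1:**
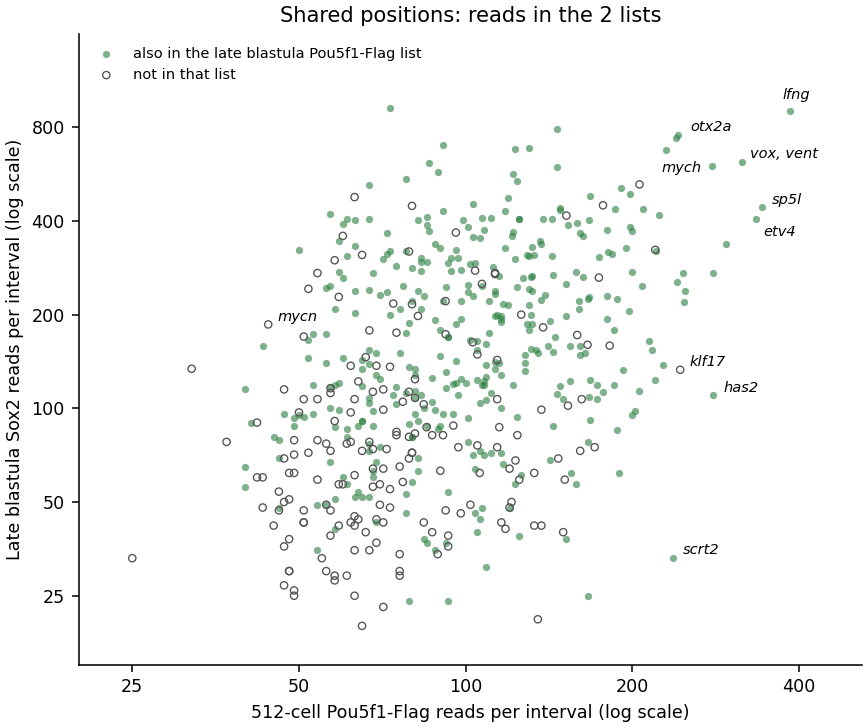
Each point is 1 of the 554 shared positions, by its reads in the 512-cell Pou5f1-Flag list (x, log scale) and in the late blastula Sox2 list (y, log scale). Filled points also have a Pou5f1-Flag interval at late blastula. The lfng, vox and mych positions lie at the upper right, and scrt2 (237 and 33 reads) lies far to the right of its Sox2 level.

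The shared positions ran from 25 to 386 reads at 512 cells (median 91.0) and from 20 to 924 for Sox2 (median 123). All kept positions ran from 23 to 566 reads at 512 cells and from 8 to 955 for Sox2. The shared position with most 512-cell reads had rank 9 in that list, so the very top of it was not represented. Most members were strong in both lists, and 418 stood in the upper 50% of both. Another 89 stood in that of the 512-cell list alone, 26 in that of the Sox2 list alone and 21 in neither. The rank correlation of reads between the lists over the 554 positions was 0.39 (Spearman), as a description of positions that share 1 library per list and had to be called in both.

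Some positions ranked high for Pou5f1-Flag at 512 cells and low for Sox2 at late blastula. The strongest of these at 512 cells lay between scrt2, a Scratch-family zinc finger gene, and tcf15, a paraxial mesoderm helix-loop-helix gene (chromosome 8, 29406085 to 29406850). It had 237 reads at 512 cells (rank 44) and 33 for Sox2 (rank 5098), and its centres lay 271 bp apart. Next came positions at rnf11b and calr (166 and 25 reads), pmp22b and NM_001110169 (158 and 57), col1a1a and casc3 (152 and 38) and one on chromosome 21 for which the lists named no gene in common (151 and 59). The first 4 of these 5 had a Pou5f1-Flag interval at late blastula. In the opposite direction, positions high for Sox2 and in the lower 50% of the 512-cell list were led by one the 512-cell list placed between lamb1a and lamb4, laminin chain genes (50 reads at 512 cells and 322 for Sox2). After it came mycn, a Myc family gene (44 and 186 reads), the cell cycle inhibitor gene cdkn1ca (51 and 170), pex16 and large2 (43 and 159) and ints2 and rnft1 (32 and 134). Of these, the lamb1a and pex16 positions had a late blastula Pou5f1-Flag interval.

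Stronger early positions carried Sox2 later more often. When the 7573 positions of the 512-cell list were put into 10 bins of equal size by reads, 247 of 758 (32.6%, 29.3 to 36.1) in the strongest bin (97 to 566 reads) had a Sox2 interval. The shares in the next 4 bins were 17.4%, 9.51%, 5.41% and 1.72%, and in the weakest bin 3 of 757 (0.396%, 0.0818 to 1.15), which became 2.34% with a false discovery rate of at most 1%. The fall was steepest over the first 5 bins. For Sox2 positions ranked in the same way, 193 of 593 (32.5%, 28.8 to 36.5) in the strongest bin had a 512-cell interval, against 3.21% (1.94 to 4.97) in the weakest.

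The very top of each list was also counted. Of the 10 strongest 512-cell positions 1 had a Sox2 interval, of the 20 strongest 5, of the 50 strongest 16 and of the 100 strongest 35 (35.0%, 25.7 to 45.2). Of the 10 strongest Sox2 positions 5 had a 512-cell interval, and of the 100 strongest 49 (49.0%, 38.9 to 59.2). With these small numbers the intervals of the 2 lists overlap at each of those depths.

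**Figure D2:**
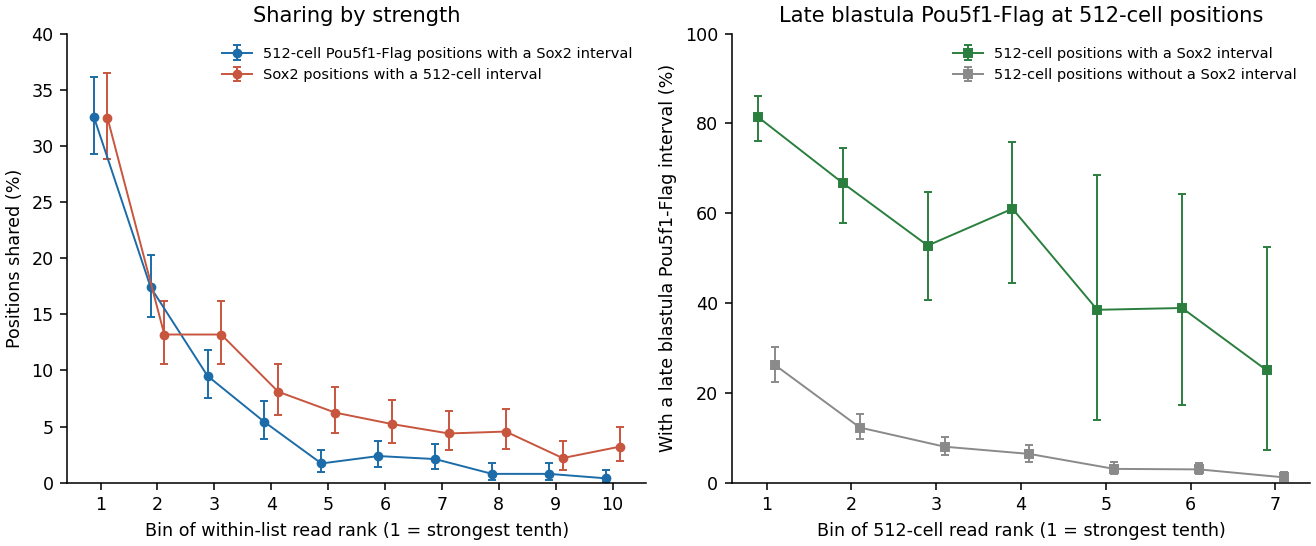
Left, share of positions present in the other list (y, percent) for 10 bins of equal size by reads (x, 1 is the strongest), for the 512-cell Pou5f1-Flag list and the Sox2 list. Right, share of 512-cell positions with a late blastula Pou5f1-Flag interval (y, percent) by bin (x), for positions with and without Sox2, in the first 7 bins. Bars are exact 95% intervals over positions. In bin 1 the 2 shares at the left are 32.6% and 32.5%, and those at the right 81.4% and 26.2%.

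The late blastula Pou5f1-Flag list gave a measure that the choice of members did not use. It held 773 of all 7573 positions of the 512-cell list (10.2%). Of the 554 positions with Sox2, 374 (67.5%, 63.4 to 71.4) were in it, against 399 of the 7019 without Sox2 (5.68%, 5.15 to 6.25). Because both depend on strength, the shares were also taken within bins. In the strongest bin they were 81.4% (76.0 to 86.0) with Sox2 and 26.2% (22.5 to 30.3) without, and in the second 66.7% (57.9 to 74.6) and 12.3% (9.85 to 15.2). In the fifth bin, with 13 shared positions, they were 38.5% (13.9 to 68.4) and 3.09% (1.97 to 4.60). These intervals cover counting error over positions of 1 library per list. They did not overlap in bins 1 to 9. In bin 10, with 3 shared positions, they did (0%, 0 to 70.8, against 1.46%, 0.730 to 2.60). The contrast was smaller among Sox2 positions. The late blastula Pou5f1-Flag list held 372 of the 550 with a 512-cell interval (67.6%) and 1283 of the 5372 without one (23.9%). In the strongest Sox2 bin the shares were 88.6% (83.3 to 92.7) and 66.8% (61.9 to 71.4). How far the contrast among 512-cell positions reflects general overlap of the late blastula Sox2 and Pou5f1-Flag lists was not tested.

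The 180 shared positions without a late blastula Pou5f1-Flag interval were weaker. Their median was 71.0 reads at 512 cells and 73.0 for Sox2, against 103 and 166 for the 374 that had one. The highest among them by both ranks were the itga5 and fgf8a positions given above, one beside ssx2ipb (220 and 323 reads), one beside fgf4, with fgf3 as the other neighbour in the Sox2 list (152 and 416 reads, chromosome 7, 54647420 to 54647933), and one between grnas or cdk6 and fam133b (174 and 263 reads).

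The intervals lay close together. Their centres were a median of 50.0 bp apart, 430 of 554 (77.6%) were within 100 bp and 518 (93.5%) within 200 bp. The Sox2 centre was at the higher coordinate in 297 and at the lower in 257. The median length was 326 bp at 512 cells and 452 bp for Sox2, and 255 of the 512-cell intervals (46.0%) lay wholly inside the Sox2 interval. The overlap was under 50 bp at 6 positions. The smallest were 4 bp at sh3gl2a (49 and 71 reads) and 6 bp at si:rp71-45k5.2 (43 and 48 reads). Just outside, a 512-cell position beside sox2 itself (48 reads) missed a Sox2 interval by 3 bp and one beside sox3 (151 reads) by 17 bp. A gap of 50 bp or less was found at 4 of the 7019 positions without Sox2, a gap of up to 10000 bp at 739 (10.5%), and the median gap was 106 kb.

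The strongest 512-cell positions without Sox2 were mostly broad. The leading one lay between cd226 and cbln2b (566 reads and 502 bp, chromosome 24, 15088883 to 15089384), with the nearest Sox2 interval 607 kb away. The other 9 of the 10 were 881 to 1613 bp long. They lay at mrpl38 and fbxl15 (503 reads), mcm3, a helicase subunit gene, and serpinb1l4 (492), mir135c-1 and mfsd4aa (449), hnrnpa0b and NM_001114881 (446), irx1a and sim1a (435), vrtn and syndig1l (421), arpc2 and mettl5 (408), nudt1 and kdm8 (357) and dmd and knstrn (332). A position at abhd13 and pdzk1 tied with the last at 332 reads. The gap to Sox2 ranged from 3.80 kb at hnrnpa0b to 607 kb at cd226. Of the 10, those at mrpl38, mcm3, arpc2 and dmd had Pou5f1-Flag at late blastula, with 20, 70, 377 and 45 reads. The 20 shared positions highest in both lists were 375 to 1064 bp long at 512 cells (median 580). They were chosen by another rule and had 167 to 386 reads, so the lengths are not compared at equal reads.

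Length was also examined within the strongest bin. A Sox2 interval was present at 34 of 61 positions under 350 bp (55.7%, 42.4 to 68.5), 84 of 198 from 350 to 449 bp (42.4%), 97 of 338 from 450 to 599 bp (28.7%), 27 of 124 from 600 to 799 bp (21.8%) and 5 of 37 of 800 bp or more (13.5%, 4.54 to 28.8). The share with Sox2 fell with length although the median reads rose from 107 to 269. The share with a late blastula Pou5f1-Flag interval showed no such fall, at 59.0% (45.7 to 71.4) in the shortest class, 38.2% at 450 to 599 bp and 51.4% (34.4 to 68.1) in the longest. In the same bin the 247 positions with Sox2 and the 511 without it had similar reads (medians 132 and 127). Their median lengths were 461 and 500 bp, and their median false discovery rates 0.586% and 0.981%. Their median normalized difference, taken here as the imbalance of forward and reverse reads, was 0.0862 and 0.126. It was above 0.25 at 11 (4.45%) and 74 (14.5%). Their median Wilcoxon filter p, as deposited, was 0.00012 and 0.0026. The part of interval shape in the presence of Sox2 was not tested.

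**Figure D3:**
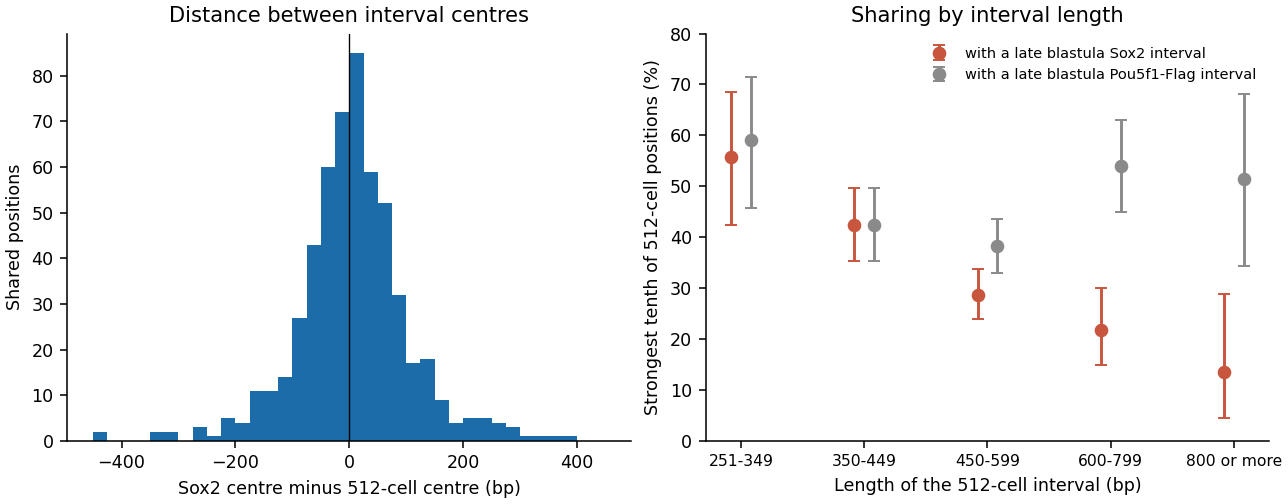
Left, number of shared positions (y) by the centre of the Sox2 interval minus that of the 512-cell interval (x, bp, 25-bp classes). Right, share of the 758 strongest 512-cell positions (y, percent) that had a Sox2 or a late blastula Pou5f1-Flag interval, by length of the 512-cell interval (x, bp), with exact 95% intervals. The Sox2 share falls from 55.7% to 13.5% and the Pou5f1-Flag share goes from 59.0% to 51.4%.

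The lists mostly named the same neighbours. Both flanking genes were the same at 329 of the 554 positions (59.4%), 1 was the same at 200 and none at 25, so that 529 (95.5%, 93.4 to 97.1) had a gene in common. Over all 554, 248 names were given by the 512-cell list alone and 121 of these (48.8%) occurred in no other list. Another 249 were given by the Sox2 list alone, and 85 of them (34.1%) were nowhere in the 512-cell list. The gene columns thus differed between the lists. On chromosome 3 the Sox2 list named suz12a and rab11fip4a for 8 shared positions spread across 2506 kb, and on chromosome 25 it named met and zgc:113984 at 3 spread over 12251 kb. The 512-cell list gave none of those names there.

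A gene was counted as beside a shared position when either list named it. Of 8670 genes named beside any kept position of either list, 1068 (12.3%) were beside a shared one, and 713 (8.22%) were so named by both lists at that position. Of the 1068, 855 were beside 1, 167 beside 2 and 46 (0.531% of the 8670) beside 3 or more. The 46 became 27 when both lists had to name the gene, 23 with centres within 100 bp and 16 with a false discovery rate of at most 1%. Of the 3290 genes that both lists named, 878 (26.7%) were beside a shared position. For the other genes that both named, early Pou5f1-Flag and later Sox2 lay at different positions.

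The highest counts were at rab11fip4a (9 over 4630 kb) and suz12a (8 over 2506 kb), never named by both lists at a position. Several transcription factor genes were also among the 46, but their share was not counted. At vox there were 5, spread over 84.8 kb, with 316, 195, 192, 102 and 78 reads at 512 cells and 617, 327, 133, 291 and 175 for Sox2 at the same positions. All 5 had Pou5f1-Flag at late blastula, 3 were shared with the neighbour lbh and 3 with vent. At id1 there were 4 over 132 kb (186, 133, 72 and 47 reads, and 438, 310, 237 and 96 for Sox2), and the order of strength was the same in both lists. At these genes every shared position was present at late blastula for Pou5f1-Flag. The 4 between ctps1b, a CTP synthase gene, and cited4b, a transcription co-factor gene, spread over 35.0 kb with 143, 109, 101 and 80 reads at 512 cells and 309, 106, 382 and 72 for Sox2.

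**Figure D4:**
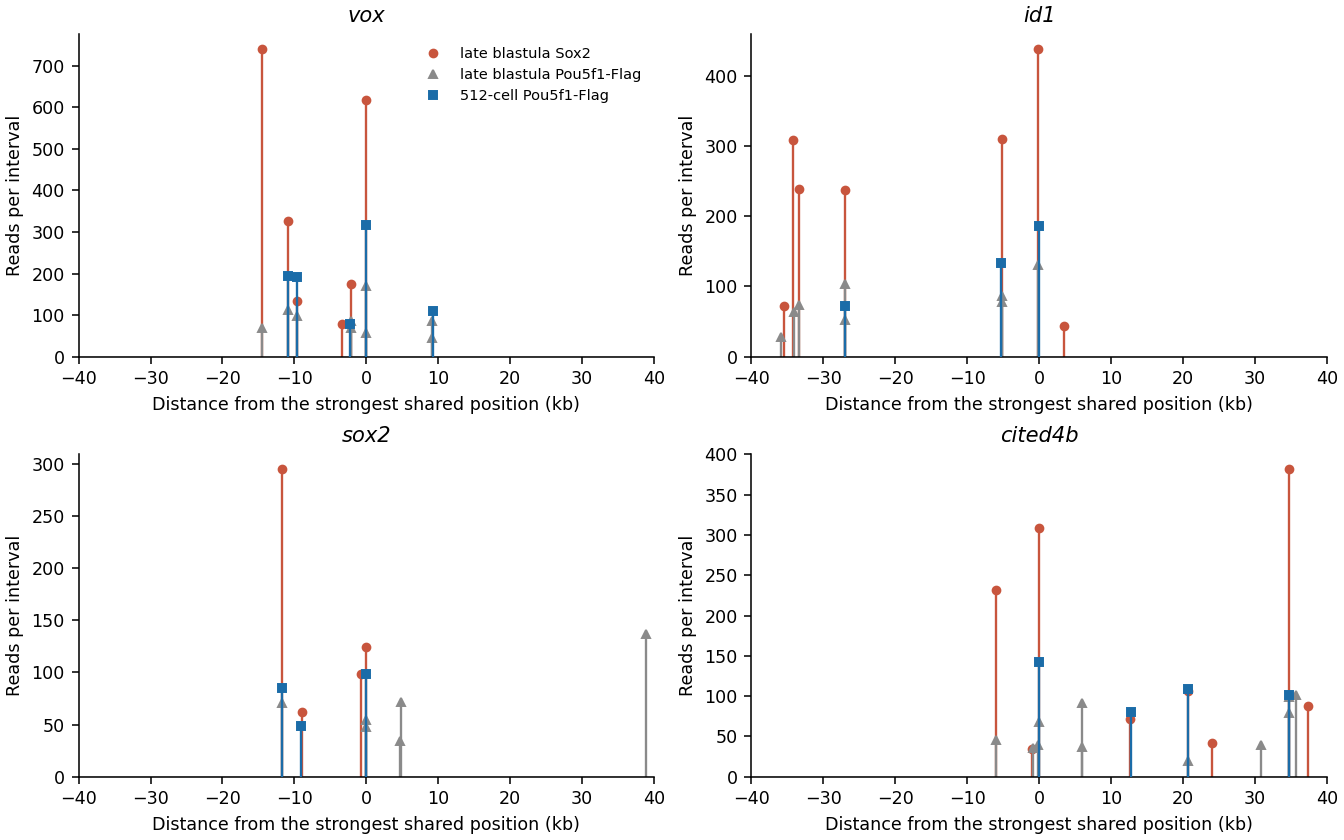
Reads per interval (y) of the 3 ChIP lists at vox, id1, sox2 and cited4b, by distance of the interval's centre from the shared position with most 512-cell reads (x, kb; 40 kb on each side). Squares are 512-cell Pou5f1-Flag, circles late blastula Sox2 and triangles late blastula Pou5f1-Flag. At vox the Sox2 interval of 740 reads has no square, and the square of 109 reads has no circle.

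At sall4, a zinc finger gene of pluripotent cells, 4 positions were spread over 756 kb. They had 160, 95, 70 and 68 reads at 512 cells and 208, 120, 231 and 113 for Sox2. Some were shared with zgc:112994 and bmf1. The genes sox2, mych, noto, irx7, zic2a and tle3a had 3 each. At sox2 the reads were 98, 85 and 49 at 512 cells and 124, 295 and 62 for Sox2. At noto, a notochord homeobox gene whose neighbour cdc25b drives entry into mitosis, they were 167, 130 and 129, and 109, 178 and 186. The strongest early position was thus the weakest for Sox2 there. At mych the reads were 279, 124 and 75 at 512 cells and 599, 82 and 287 for Sox2. As at noto, the strongest early position was the weakest for Sox2 at zic2a, a zinc finger gene of the neural plate (120, 63 and 49 reads, and 48, 402 and 88), which shared its positions with tmtc4. At the Iroquois gene irx7 they were 144, 74 and 59, and 269, 110 and 228. At tle3a, a Groucho co-repressor gene, and its neighbour morf4l1 they were 185, 146 and 51, and 178, 596 and 94.

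The neighbouring genes tma16 and tmem192 had 5 shared positions over 31.7 kb (57 to 180 reads at 512 cells). The neighbours pigh and rhov had 4, syn1 4 of which 3 lay beside vgll4l, midn 4 and phtf1, the neighbour of id1, 4. At lfng and grifin there were 4 within 6.78 kb (386, 214, 168 and 106 reads, and 905, 164, 92 and 73 for Sox2), all with Pou5f1-Flag at late blastula. Others with 3 included the neighbouring pairs dbx1b and mpped2, yif1b and mob2b, cdkn1ca and kcnq1.1, and lhx5 and NM_001003568, together with irf2a, lnx2b and man2b1. In all, 115 of the 554 positions (20.8%) lay within 10 kb of another, in 46 pairs and 7 larger groups.

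Listed genes of embryonic patterning were then set beside the 12.3% of all genes. Over 8 lists, 98 of the 234 genes named by either list (41.9%, 35.5 to 48.5) were beside a shared position, at 151 positions with medians of 118 reads at 512 cells and 200 for Sox2. Over 3 comparison lists it was 3 of 49 (6.12%, 1.28 to 16.9). Of genes that both lists named at all, 91 of 172 in the patterning lists (52.9%, 45.2 to 60.5) and 2 of 15 in the comparison lists (13.3%, 1.66 to 40.5) were beside a shared position, against 26.7% of all such genes. The gene lists were chosen with earlier results of these data known, so these shares are descriptions and no independent support. Genes with more positions in the lists could more easily lie beside a shared one, and this was not taken into account. Neighbouring genes of a list can count for the same position. The positions given for single genes are those with the most 512-cell reads, so their ranks in the 2 lists are not compared.

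Ligands, antagonists and targets of Bmp and the dorsoventral genes were beside a shared position in 13 of 28 cases (46.4%). Besides vox, vent and id1 these were led by the ligand gene bmp2b (202 reads at 512 cells and 98 for Sox2) and bmper, which encodes a Bmp-binding protein (185 and 119). The other shared bmp2b position had 158 and 275 reads. In the Nodal and mesendoderm list it was 11 of 28 (39.3%). The leading members after tbxta, hhex and foxh1 were noto and the Nodal antagonist gene lft2 (166 and 78 reads). The stronger tbxta position was so named by the Sox2 list alone, and by the 512-cell names zdhhc18b lay between it and tbxta. The other shared tbxta position (134 and 154 reads) was so named by both lists.

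Neural and ectodermal genes stood at 20 of 41 (48.8%), with the largest number of positions (32, with medians of 116 and 256 reads). This was also the longest list (46 genes), and the 20 included arl4ab, an ADP-ribosylation factor-like gene. After otx2a, lhx5, her5 and her3 came zic2b, named by the 512-cell list alone (166 and 224 reads). Wnt genes stood at 11 of 29 (37.9%). Here ligand and receptor genes, targets and co-repressors were all represented, by wnt11f2, a ligand gene of cell movement (166 and 160 reads), fzd8a, sp5l, ctnnb1 and tle3a. Fgf genes stood at 10 of 22 (45.5%). The feedback inhibitor genes spry1 (249 and 239 reads) and dusp6 (161 and 366 reads) joined etv4, fgf8a and fgf3. The name spry1 came from the 512-cell list alone.

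The list headed SoxB1, Pou, Klf and Myc factors had 16 of 31 (51.6%, 33.1 to 69.8). Genes outside those families were counted in it too, among them nanog, foxd3, sall4, sox11a and lin28ab. The share is thus not that of the named families alone. The list's strongest early positions were at mycla, a Myc family gene (280 reads at 512 cells and 272 for Sox2, chromosome 13, 36315212 to 36315874), mych, the Krüppel-like gene klf17 (244 and 133 reads), the SoxB1 gene sox19a (241 and 255) and klf6a. The klf17 position had the most 512-cell reads of all shared positions without a late blastula Pou5f1-Flag interval. Genes of the factors themselves, picked out after their values were seen, were included. Of these, pou5f3 had 1 shared position (101 and 237 reads), sox2 3, and nanog and sox3 2 each. Cell movement genes stood at 10 of 28 (35.7%), led by has2, a hyaluronan synthase gene (280 and 110 reads), the chemokine receptor gene cxcr4b (248 and 220), the semaphorin receptor gene plxna1b (227 and 138), itga5 and cxcr4a (128 and 140). The name has2 came from the Sox2 list alone at that position, and from both lists at another shared position (116 and 72 reads). The other members included epha2a, an ephrin receptor gene picked out after its values were seen, with 91 reads at 512 cells and 699 for Sox2. The second cxcr4a position had 72 and 313 reads.

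Notch and proneural genes had 7 of 27 (25.9%, 11.1 to 46.3) when either list could name the gene and 2 when both had to, against 12.3% and 8.22% of all genes. Of those named in both lists it was 5 of 16 (31.2%, 11.0 to 58.7), against 26.7% of all such genes. The names lfng and her1 came from the 512-cell list alone, and hes6 and her7 from the Sox2 list alone. After lfng, whose reads were the highest among the genes named from all lists, the leading members were hes6 (132 and 187 reads), the Delta ligand gene dlc (123 and 302), and her1 and her7, somite clock genes named for the same position (120 and 64). In the comparison lists 0 of 10 germ plasm and oocyte genes (upper limit 30.8%), 1 of 22 ribosome and translation genes and 2 of 17 genes of differentiated muscle, liver and eye were beside a shared position. These were rpsa, a ribosomal protein gene (142 and 68 reads), fga, a fibrinogen chain gene (163 and 358), and the muscle actin gene actc1b (93 and 24). The intervals of single lists are wide and overlap with one another for most pairs.

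**Figure D5:**
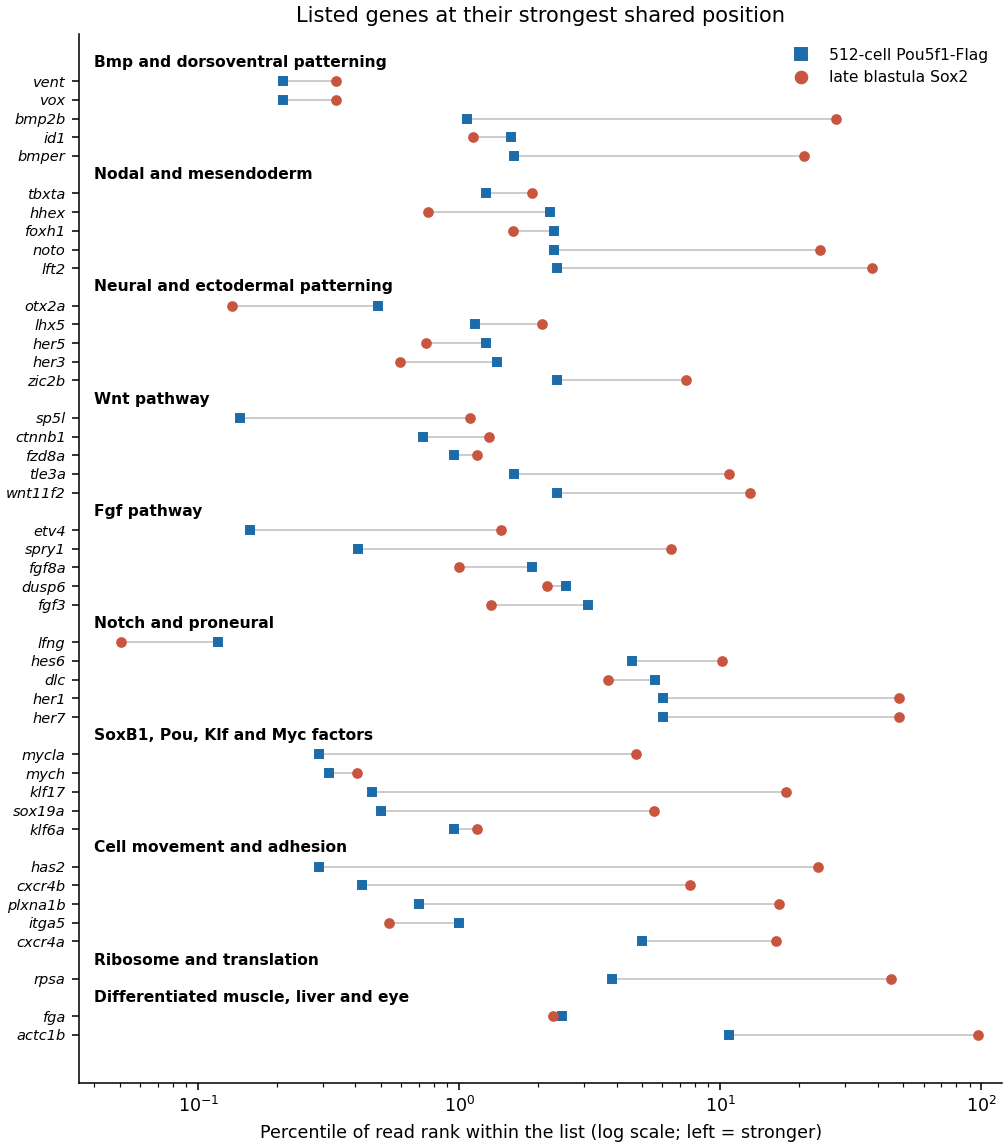
Percentile of read rank within each list (x, log scale, stronger to the left) at the shared position with most 512-cell reads, for up to 5 genes of each list (rows). Squares are 512-cell Pou5f1-Flag and circles late blastula Sox2. Both symbols lie within the first 1.17% for vent, vox, mych, klf6a, fzd8a, lfng, otx2a, sp5l and itga5. Of these, vent and vox stand for the same position, as do klf6a and fzd8a. For bmp2b, lft2, has2 and klf17, among others, the circle lies far to the right. The positions were chosen by 512-cell reads, so the distance between the symbols is not a comparison of the lists.

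There were 81 patterning genes named in both lists but with no shared position, and the following were chosen after their values were seen. At otx1, the Sox2 list had an interval of 955 reads and the strongest of 4 positions at 512 cells had 66, with the nearest pair 1.37 kb apart. At mixl1, an endoderm homeobox gene, the strongest had 227 reads at 512 cells and 76 for Sox2, with a nearest gap of 40.2 kb. The fibronectin gene fn1a had 12 positions in the 512-cell list and 10 in the Sox2 list, none closer than 7.41 kb. At pax2a, with 6 in each, the nearest pair was 0.0500 kb apart.

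Positions with Sox2 were found on all 25 chromosomes. The share ran from 5.19% of 366 positions on chromosome 16 (3.15 to 7.99) to 10.6% of 180 on chromosome 22 (6.48 to 16.0), and all single intervals included the share of 7.32% over the genome.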

How the data were processed

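Each sample has 1 deposited peak list. Per the file headers, they give for each interval the count of reads inside it and on each strand, and a false discovery rate in percent. They also give a Wilcoxon filter p-value, a normalized difference (a fraction, as deposited) and 2 flanking gene accessions. The column name of the normalized difference does not mention strands, and it was taken here as the imbalance of forward and reverse reads. The length in bp is also deposited. The submitters' processing notes name CASAVA. For the aligner, peak caller and thresholds, nothing is given in the sources used here. Interval identifiers of the late blastula lists name Zv9. For the 512-cell list it was assumed, since 95.5% of shared positions had a gene in common. Library totals were not analysed here, and the summed reads inside intervals (564835 at 512 cells, 742542 for Sox2) are not depths.

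Of 7747 intervals at 512 cells, 174 overlapped Input, and of 6129 for Sox2, 205 did and 2 were mitochondrial. Ranks and 10 equal bins used reads within a list, with ties in bins broken by position. Shares carry exact (Clopper-Pearson) 95% intervals over positions or genes, which cover counting error only. Positions are not replicates, and neighbouring ones are not independent. Accessions were named through RefSeq genes of GRCz12tu, used for names alone (95.6% of accessions matched at 512 cells, 94.5% for Sox2). Named were the 20 positions with the best worse rank, the 10 strongest without Sox2, 5 of each kind with unequal ranks, genes with 3 or more shared positions and 5 genes per list. One result under this rule is not reported here. Members and the 11 gene lists were chosen with earlier results of these data known. Overlaps were tested on simulated intervals. Alternatives were other overlap rules, no Input filter, a false discovery rate of at most 1%, reads per kb and gene names given by both lists. Python 3.11.15, pandas 2.3.3 and scipy 1.17.1 were used.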

Additional observations from a re-analysis of the deposited data

How the results depend on the processing

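Counting positions by centres within 100 bp gave 5.68% of 512-cell and 7.26% of Sox2 positions shared, 25.5% in the strongest 512-cell bin and 23 genes with 3 or more shared positions (main values 7.32%, 9.29%, 32.6% and 46). Overlap of at least 50% of both intervals gave 6.21% and 7.94%, and a gap of up to 500 bp 8.03% and 10.5%. A false discovery rate of at most 1% in both lists left 1289 and 4788 positions, with 19.2% and 5.14% shared, 37.2% in the strongest bin, 2.34% in the weakest and 16 such genes. Ranking by reads per kb gave 40.2% in the strongest bin. Requiring both lists to name the gene left 27 genes. These were 15 of 39 alternative values, and the other 24, including all without the Input filter, stayed within the 95% interval of the main share or within 1.5 times of the main count. The strongest bin exceeded the weakest under each alternative that was run. The cause of these shifts was not tested. No paired analysis was possible because each group held 1 sample. The depth of the libraries is unknown here, so an early position absent from the Sox2 list was not detected there, which does not show that Sox2 was absent.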
